A study of Rattus norvegicus with 36 samples.

Results

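The miR-290 to miR-295 cluster was followed as all rows of the count table named rno-miR-290, miR-291a, miR-291b, miR-292, miR-293, miR-294 or miR-295 with any arm suffix, which gave 11 of the 723 mature miRNAs. The table holds small RNA reads counted per mature miRNA in 36 libraries from 12 male heterogeneous stock (HS) rats, an outbred line in which each animal has its own mix of the founder strains' alleles. Each rat gave 1 library of the infralimbic (IL) prefrontal cortex, 1 of the prelimbic (PL) prefrontal cortex and 1 of the nucleus accumbens (NAc), all dissected from snap-frozen brain. The 3 groups held 4 rats each: naïve rats that had taken no cocaine, withdrawal rats taken 16 hours after the last cocaine self-administration session of a schedule of short and then longer sessions, and abstinence rats kept 4 weeks without cocaine after the same schedule. The hour of withdrawal is that of the sample labels; the study's methods give another. These were whole dissected pieces, so fewer cells of a type and less of a miRNA per cell cannot be told apart.

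The cluster is known from early mouse and rat embryos and embryonic stem cells, where 1 primary transcript yields several hairpins. Each hairpin is cut into a 5p and a 3p arm, and an arm that is loaded into an Argonaute protein lowers the messenger RNAs that pair with its seed, bases 2 to 8 from its 5′ end. The 3p arms carry variants of the AAGUGC core, which is associated with fast cell cycling and with keeping stem cells undifferentiated, and adult brain is not a tissue for which the cluster is known.

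In the RefSeq annotation of the assembly GRCr8 the hairpins lie on 1 strand of chromosome 1. Their order is Mir290, Mir291a, Mir292, Mir291b, Mir293, Mir294 and Mir295-1. A further hairpin, Mir295-2, has the same sequence as Mir295-1, so reads of rno-miR-295-3p cannot be assigned to either. GRCr8 is neither the assembly of the submitters' processing notes (mRatBN7.2, rn7) nor that of the study's methods, and served for names, order and sequence only. The 3 members with enough reads to test are shown with the seed in capitals:
rno-miR-292-5p: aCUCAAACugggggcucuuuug
rno-miR-292-3p: aAGUGCCGccagguuuugagugu
rno-miR-295-3p: aAGUGCUAcuacuuuugggugu
The pair from Mir292 sits in 1 hairpin of 82 bases, shown with both arms in capitals because the arms were counted separately:
Mir292: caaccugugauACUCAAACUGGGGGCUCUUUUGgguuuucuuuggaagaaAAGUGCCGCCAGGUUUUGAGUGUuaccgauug
The seed of rno-miR-292-5p is shared with 2 other members, rno-miR-290 and rno-miR-293-5p, and with no other row of the table:
rno-miR-290: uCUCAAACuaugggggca
rno-miR-293-5p: aCUCAAACugugugacacuuu
The seeds of rno-miR-292-3p and rno-miR-295-3p differ from each other and belong to no other row. Among the members, 5 hold AGUGC within their bases 1 to 9, as do 18 rows of the whole table. The nearest other RefSeq mature sequences differ by at least 5 base changes, insertions or deletions from each of the 3 tested members.

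Reads of the cluster came mainly from miR-292. The 11 rows held 1912 of the 390477775 reads counted in all libraries. rno-miR-292-5p took 75.1% of them (1436 reads, at least 1 in 35 of 36 libraries), rno-miR-295-3p took 15.8% (in 32 libraries) and rno-miR-292-3p took 7.95% (152 reads in 28 libraries). These 3 passed the filter on low counts, which kept 457 of the 723 rows. Ranked by mean counts-per-million value (CPM, on library totals scaled by TMM factors) among the 628 rows with any read, rno-miR-292-5p was at place 348 with 3.91 CPM, rno-miR-295-3p at place 419 with 0.816 CPM and rno-miR-292-3p below both with 0.406 CPM. All 3 were thus low, and rno-miR-292-3p only just passed the filter. It passed through its highest libraries, which were cortical ones of naïve and abstinence rats (up to 1.29 CPM in naïve PL and 1.645 CPM in abstinence IL). Its highest withdrawal library was at 0.744 CPM and its highest NAc library at 0.753 CPM. Its comparisons with withdrawal and with NAc are therefore tilted by this selection.

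The other 8 members carried 22 reads in all. rno-miR-293-5p had 10 reads in 4 libraries, of which 3 were naïve NAc libraries with 1, 2 and 4 reads and the other an abstinence IL library with 3. rno-miR-291a-3p had 8 reads in 6 libraries, rno-miR-290 had 2 reads and rno-miR-291a-5p had 2 reads. None of these 22 reads was in a withdrawal library. How often other rows with as few reads miss a whole group was not counted, so no change at withdrawal follows from this. rno-miR-291b, rno-miR-293-3p, rno-miR-294 and rno-miR-295-5p had 0 reads in all 36 libraries, which allows up to 0.00768 CPM over the libraries together (3 reads, counting error only). At this depth the absence of these members from brain was not shown. Fits without the filter on low counts covered the 4 of them with any read, and the only one of their values past the rule used below for group comparisons was rno-miR-293-5p, abstinence minus naïve in NAc (adjusted p = 0.928, edgeR; 2.39% of the 628 rows were past it). All 4 abstinence NAc libraries were at 0 there, so the fitted fold is set by the model's prior and is not given.

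Of the reads from Mir292, 90.4% were of the 5p arm (Wilson 95% interval 88.9 to 91.8%, 1588 reads). The share of the 5p arm was 91.8% in IL, 90.1% in PL and 88.7% in NAc, with intervals that overlap (89.3 to 93.7%, 87.6 to 92.2% and 84.9 to 91.7%). These intervals pool the reads of all rats and cover counting error only, so they do not test whether regions differ. In the 10 rats with at least 70 reads of the pair it ran from 88.2 to 93.3%.

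Rats of 1 group differed widely. rno-miR-292-5p was close to 0 in all 3 regions of withdrawal rats M154 and M172 and well above it in nearly all libraries of the other 10 rats. M172 had 1 read in IL, 2 in PL and 2 in NAc, and M154 had 2 in IL, 6 in PL and 0 in NAc. The other 30 libraries held 18 to 133 reads each, except the NAc library of abstinence rat M472, with 4. Summed over the 3 regions on plain library totals, rno-miR-292-5p was at 0.149 CPM in M172 (exact 95% interval 0.0484 to 0.348) and 0.252 CPM in M154 (0.109 to 0.497). The next lowest rat, M472, was at 1.85 CPM (1.42 to 2.36), and the highest, abstinence rat M456, at 8.63 CPM (7.64 to 9.72). The intervals cover counting error only, as the reads carry no molecular identifiers.

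**Figure D1:**
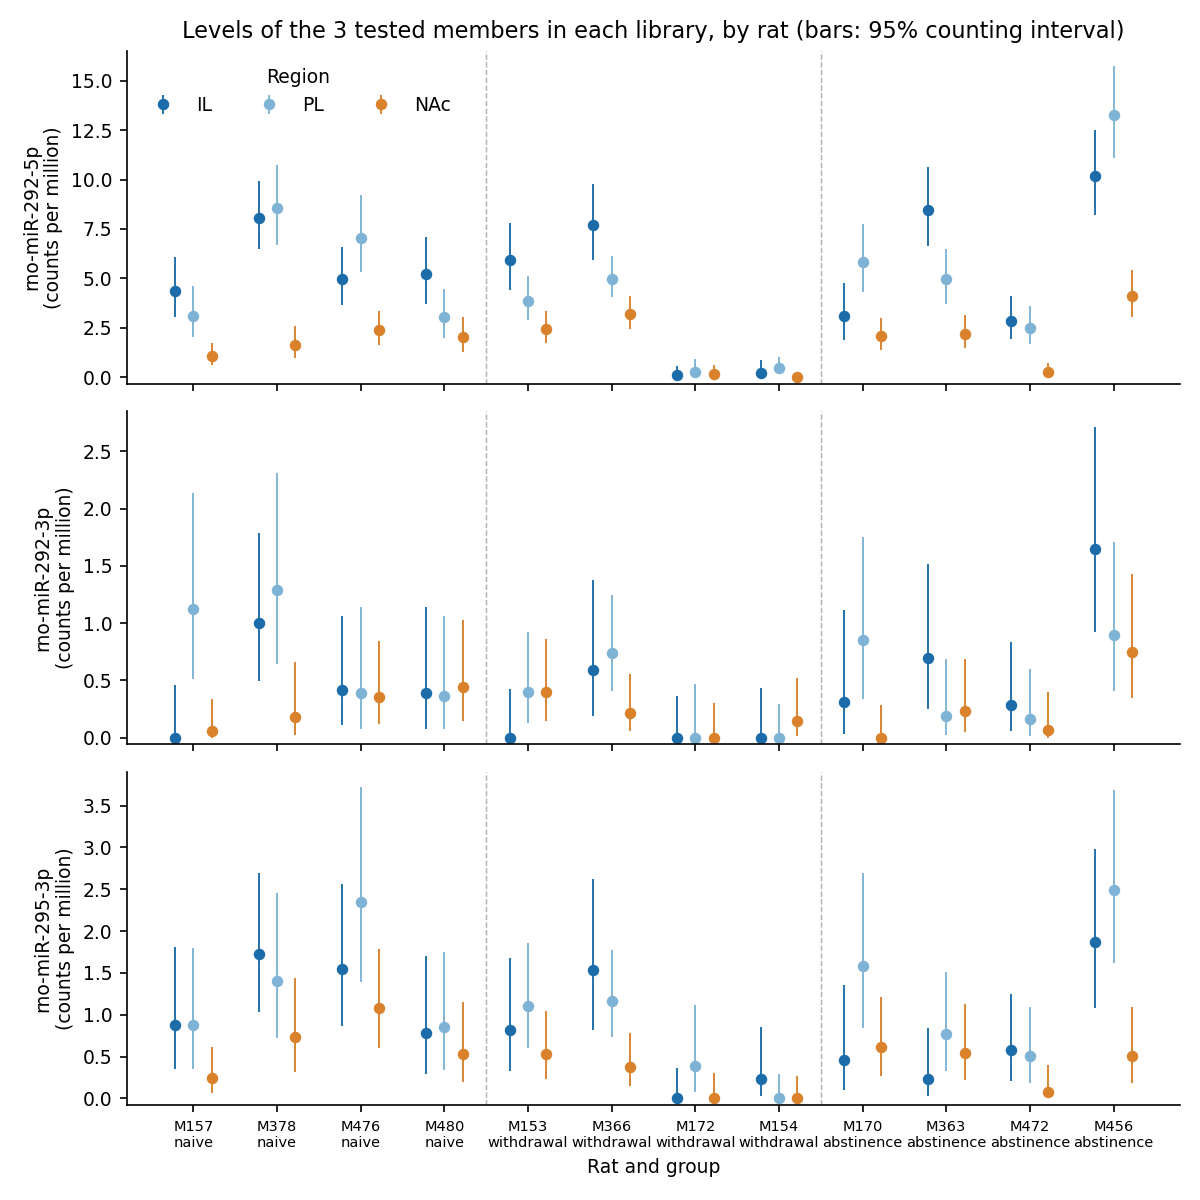
CPM (TMM-scaled totals) of the 3 tested members in each of the 36 libraries, with rats on the x axis ordered by group, 1 point per region and bars for the exact 95% counting interval. rno-miR-292-5p lay at or below 0.475 CPM in every library of M154 and M172.

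The other tested members were low in the same rats. rno-miR-295-3p had 3 reads in M172, all in PL, and 2 reads in M154, both in IL. Its other 30 libraries held 1 to 25 reads. rno-miR-292-3p had 0 reads in M172 (up to 0.110 CPM by the exact interval) and 2 in M154, both in NAc. This member was also at 0 in the IL of naïve rat M157 and of withdrawal rat M153 and in the NAc of abstinence rat M170, so its zeros were not limited to M154 and M172. Reads of all 11 members together made up 0.239 CPM in M172 and 0.378 CPM in M154 (plain totals, 8 and 12 reads), against 2.40 CPM in M472 and 11.3 CPM in M456.

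The order of the rats for rno-miR-292-5p was alike in the 3 regions at its ends. M456 was the highest in IL (10.2 CPM), PL (13.3 CPM) and NAc (4.10 CPM), and M472 was at place 10 of 12 in each of them (2.87, 2.51 and 0.289 CPM). M154 and M172 held the last 2 places in each. Of the 457 tested miRNAs, 4 had the same pair of rats at the 2 lowest places in all 3 regions. The pair was M154 and M172 for rno-miR-292-5p alone, and M170 and M363 for rno-miR-1839-5p, rno-miR-1843-3p and rno-miR-1843-5p.

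After removing region means, 64.9% of the sum of squares of log2 CPM (prior count 0.5) of rno-miR-292-5p lay between rats of the same group. A further 27.4% lay between groups and 7.71% within rats (9, 2 and 22 degrees of freedom). The shares were 54.7%, 26.3% and 19.0% for rno-miR-295-3p and 42.0%, 19.2% and 38.8% for rno-miR-292-3p. The medians over the 457 tested miRNAs were 33.6%, 6.38% and 58.4%. By the share between rats of a group, rno-miR-292-5p was at place 7, rno-miR-295-3p at place 23 and rno-miR-292-3p at place 102. By the share between groups they were at places 16, 18 and 42. Because both low rats were withdrawal rats, the group share and the 2 rats cannot be told apart in this description.

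**Figure D2:**
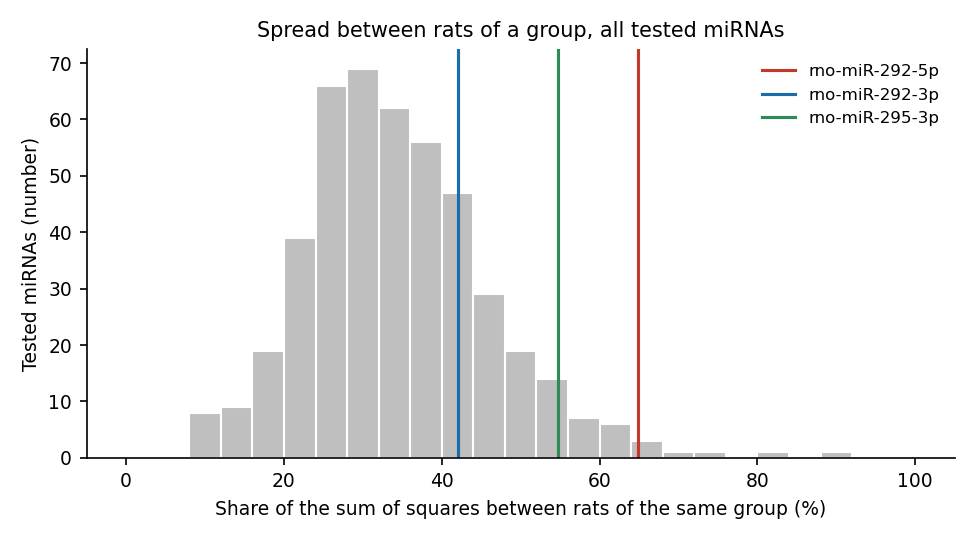
Histogram over the 457 tested miRNAs of the percentage of the sum of squares of log2 CPM (region means removed) that lies between rats of the same group, with vertical lines for the 3 members. rno-miR-292-5p, at 64.9%, lies in the upper tail, whereas rno-miR-292-3p, at 42.0%, lies within the bulk.

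Values that moved with these 2 rats were looked for in depth, RNA quality and marker miRNAs. Library totals were 9006223 to 12474655 in M154, 10350700 to 11793980 in M172 and 6192155 to 18877136 in the other rats. RNA integrity numbers (RIN) were 8.8 to 9.2, 8.9 to 9.3 and 7.4 to 9.2. Neither depth nor RIN of the 2 rats lay below the range of the rest. The TMM factors, which scale CPM, went outside the range of 0.772 to 1.30 of the other rats, down to 0.69 in M172 and up to 1.34 in M154. A list of 8 miRNAs taken as epithelial markers held miR-200a-3p, miR-200b-3p, miR-200c-3p, miR-141-3p, miR-429, miR-182, miR-183-5p and miR-96-5p. Their summed level in M172 was 167 CPM in IL, 2698 in PL and 1353 in NAc. Each was above the highest of the other 10 rats in the same region. In PL and NAc it was also above the 230 CPM that was their highest in any region. Only the sum was computed, so which of the 8 were high in M172 is not shown. In M154 the sum was 33.05 CPM in IL and 31.2 in PL, inside the ranges of the other 10 rats there (23.68 to 106.2 and 23.33 to 230.1 CPM). In NAc of M154 it was 23.86 CPM, below their 29.65 to 63.73 CPM. The high sum was thus seen in M172 and not in M154. Whether these 8 miRNAs have a part in the low level of M172 was not tested. The summed level of the 3 neuronal markers (miR-124-3p, miR-9a-5p and miR-128-3p) was 197200 to 327300 CPM in M154, 222200 to 610100 in M172 and 156600 to 512900 in the others. In PL of M172 it was 610100 CPM, above the 183900 to 512900 CPM of the other 10 rats there. For 5 choroid plexus and ependymal markers the sum was 1078 to 1529 CPM in M154, 1140 to 2116 in M172 and 1011 to 2536 in the others. The sum of 4 white blood cell and microglial markers in the table was 383 to 612, 301 to 723 and 278 to 1086 CPM, and in PL that of M172 (410 CPM) was below the 568 to 1086 CPM of the other 10 rats. The sum of the 3 red blood cell markers in the table was above that of all the other 10 rats for both low rats in PL (1.27 CPM in M154 and 1.78 in M172, against at most 1.18) and in NAc (2.26 and 3.23, against at most 1.92), but not in IL (0.118 and 0, against 0.110 to 0.945). miR-338-3p, the 1 oligodendrocyte marker in the table, was at 21.1 CPM in PL of M154, above the 2.69 to 10.4 CPM of the other 10 rats there, and at 2.76 CPM in IL of M172, below their 3.25 to 12.4 CPM. In the other libraries of the low rats it lay within the range of the same region. The part of these markers in the low level of the cluster was not tested. No other embryonic stem cell cluster could be set beside these values, as rows of miR-302, miR-367 and miR-371 numbered 0 among those analysed.

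The 3 members varied together from rat to rat. M154 and M172 stand apart from the rest, so relations over rats were computed over the other 10, on log2 CPM of the 3 regions summed. rno-miR-292-5p and rno-miR-292-3p, arms of 1 hairpin, had r = 0.915 (permutation p = 0.00026, adjusted 0.00156; rho = 0.794, permutation p = 0.0085, adjusted 0.0504). rno-miR-292-5p and rno-miR-295-3p, from separate hairpins, had r = 0.791 (permutation p = 0.00679, adjusted 0.0136; rho = 0.745, permutation p = 0.0168, adjusted 0.0504). rno-miR-292-3p and rno-miR-295-3p had r = 0.800 (permutation p = 0.00455, adjusted 0.0136; rho = 0.709, permutation p = 0.0269, adjusted 0.0538). Without the 2 rats farthest from the median of the x axis, r was 0.749, 0.520 and 0.652. Between regions, with each region's own CPM of rno-miR-292-5p in the same 10 rats, r was 0.627 for IL and PL (permutation p = 0.0518, adjusted 0.0518), 0.696 for IL and NAc (permutation p = 0.0149, adjusted 0.0224) and 0.659 for PL and NAc (permutation p = 0.0365, adjusted 0.0438). Their rho was 0.564, 0.624 and 0.564 (permutation p = 0.0941, 0.0600 and 0.0962, adjusted 0.0962, 0.0900 and 0.0962), and r was 0.225, 0.299 and 0.236 over the 8 rats left without the 2 farthest, a step that also narrows the range of values. P-values were adjusted over these 6 relations.

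**Figure D3:**
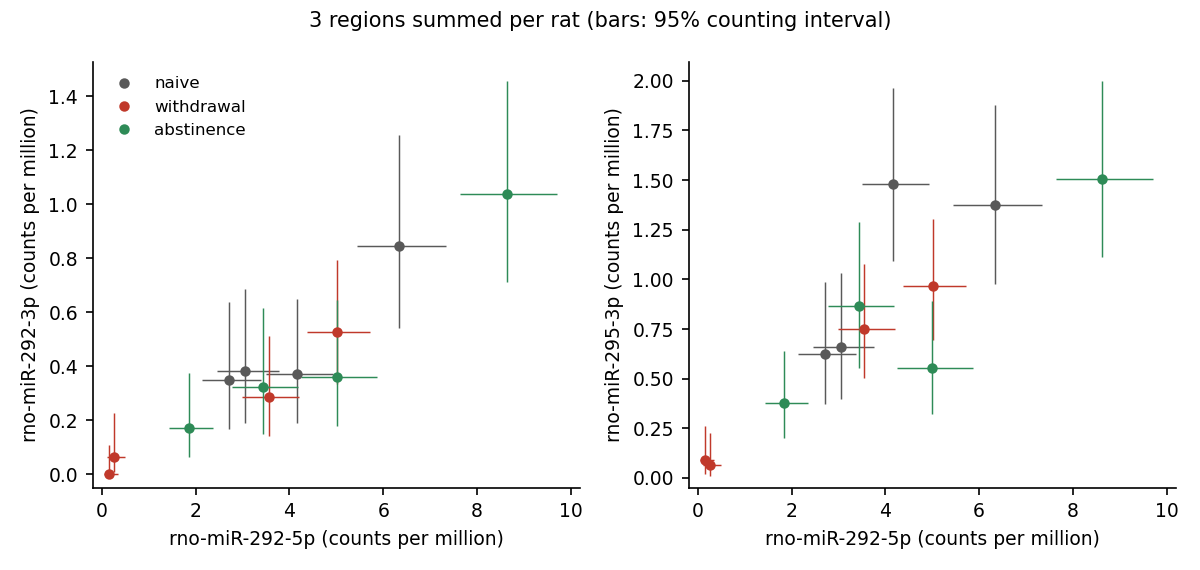
CPM of rno-miR-292-3p and rno-miR-295-3p (y axes) against rno-miR-292-5p (x axes) in each of the 12 rats, 3 regions summed on plain library totals, with exact 95% counting intervals and colours for the groups. M154 and M172 lie next to the origin and M456, at 8.63 CPM of rno-miR-292-5p, lies farthest to the right.

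Across all 36 libraries the patterns most like that of rno-miR-292-5p were those of the other tested members, rno-miR-295-3p (Spearman rho = 0.780) and rno-miR-292-3p (0.721), followed by rno-miR-673-3p (0.641), rno-miR-27a-5p (0.634) and rno-miR-184 (0.622). For rno-miR-295-3p the next after the members were rno-miR-673-3p (0.638), rno-miR-184 (0.536) and rno-miR-146b-3p (0.535). For rno-miR-292-3p they were rno-miR-500-3p (0.485), rno-miR-326-5p (0.458) and rno-miR-135a-3p (0.411), and its rho with rno-miR-295-3p was 0.656. These are descriptions over libraries that share rats, regions and depth.

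The study compared the groups within each region to find miRNAs that change at withdrawal or after abstinence. A change was called where the fold change reached 1.5 and the unadjusted p was under 0.05 (edgeR's quasi-likelihood test over all 36 libraries with RIN as a covariate). This fit had no term for the rat, so the 3 libraries of a rat counted as independent when the spread was estimated. For miRNAs that vary mainly between rats this overstates the degrees of freedom. The limma-voom alternative with a rat block used 1 correlation, 0.117, for all miRNAs. Adjusted p-values are Benjamini-Hochberg values over the 457 miRNAs tested. By this rule 0 of the 3 members were called in any of the 9 comparisons, and 0 of the 27 values had an unadjusted p under 0.05. limma-voom called 2 of the 27 and DESeq2 called 1. Over the same 9 comparisons and all tested miRNAs, edgeR called 4.06% of the values (167 of 4113), limma-voom 2.99% and DESeq2 4.5%.

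In IL, rno-miR-292-5p was at 4.38, 8.07, 4.97 and 5.21 CPM in naïve rats (mean 5.66 ± 1.65 SD, n = 4). It was at 5.92, 7.68, 0.0985 and 0.235 CPM in withdrawal rats (3.48 ± 3.90) and at 3.09, 8.47, 2.87 and 10.2 CPM in abstinence rats (6.16 ± 3.74). The withdrawal rats split into a pair within the naïve range and a pair under it, so the groups overlapped. The withdrawal minus naïve log2 fold change was -1.03 (SE 0.93, p = 0.276, adjusted p = 0.634, edgeR), and an exact two-sided permutation test of log2 CPM gave p = 0.371. Of all 457 miRNAs, 6.35% were called in this comparison. Abstinence differed from naïve by -0.27 (SE 0.92, adjusted p = 0.959) and from withdrawal by 0.76 (SE 0.90, adjusted p = 0.824). The shares called there were 8.32% and 6.35%.

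The withdrawal value in IL depended on the model and on the 2 low rats. limma-voom, which averages log values and is the method the study states, gave -2.40 (SE 1.03, adjusted p = 0.577), past the rule on fold change and unadjusted p, and -2.36 (adjusted p = 0.583), also past it, with the rat as a random block. In this comparison limma-voom called 4.16% of all tested miRNAs, and 4.38% with the block. The value over its 17 alternatives ran from -2.40 to 0.08 with adjusted p-values of 0.526 to 0.973. With 1 library left out at a time the edgeR change ran from -1.81 (without M153) to -0.59 (without M172), and without both M154 and M172 it was 0.08 (SE 0.67, adjusted p = 0.973). By limma-voom the change in IL did not differ detectably from that in PL (difference -0.91, SE 1.43, adjusted p = 0.745) or in NAc (-0.98, SE 1.57, adjusted p = 0.999). Abstinence minus withdrawal in IL also varied, with 2.01 by limma-voom (adjusted p = 0.8385) and 2.02 with the block (adjusted p = 0.8455). Only the latter was past the rule on unadjusted p, in a fit that called 3.94% of all tested miRNAs there. Without M154 and M172 the edgeR value was -0.16.

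**Figure D4:**
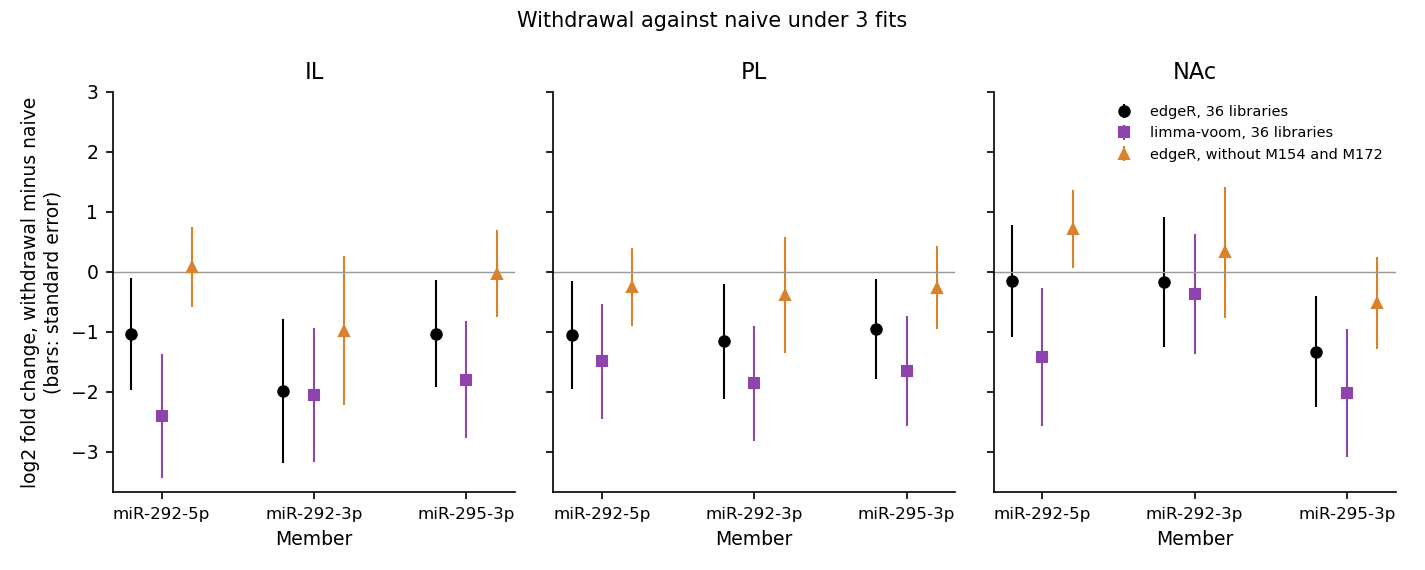
Log2 fold changes of the 3 tested members, withdrawal minus naïve, in IL, PL and NAc (panels), with standard errors as bars, from edgeR and limma-voom on 36 libraries and from edgeR without the libraries of M154 and M172. For rno-miR-292-5p in IL the 3 values are -1.03, -2.40 and 0.08.

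In PL, rno-miR-292-5p was at 3.12, 8.55, 7.06 and 3.04 CPM in naïve rats, at 3.88, 4.99, 0.255 and 0.475 CPM in withdrawal rats and at 5.83, 4.97, 2.51 and 13.3 CPM in abstinence rats. Withdrawal was again a pair inside the naïve range and a pair below it. The log2 fold change was -1.05 for withdrawal minus naïve (SE 0.90, adjusted p = 0.697; exact permutation p = 0.171), 0.25 for abstinence minus naïve (SE 0.88, adjusted p = 0.991) and 1.29 for abstinence minus withdrawal (SE 0.90, adjusted p = 1.00). The shares of all tested miRNAs called were 4.81%, 2.41% and 3.50%. Without M154 and M172 the withdrawal minus naïve value was -0.25 (SE 0.64). Every withdrawal library of PL had more reads than any naïve one, and the part of depth in this comparison cannot be told apart from that of group.

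In NAc, rno-miR-292-5p was at 1.09, 1.65, 2.38 and 2.02 CPM in naïve rats, at 2.45, 3.19, 0.166 and 0 CPM in withdrawal rats and at 2.08, 2.19, 0.289 and 4.10 CPM in abstinence rats. Here the other pair of withdrawal rats, M153 and M366, lay above all naïve rats while M154 and M172 lay below them. The withdrawal minus naïve change was -0.15 (SE 0.93, adjusted p = 0.951; exact permutation p = 0.429), and 0.71 (SE 0.65, adjusted p = 0.732) without M154 and M172. Abstinence minus naïve was 0.03 (SE 0.96, adjusted p = 0.989) and abstinence minus withdrawal 0.18 (SE 0.96, adjusted p = 0.999). The shares called were 2.84%, 1.09% and 0.875%.

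rno-miR-295-3p, from another hairpin, had lower withdrawal than naïve means in the fit in all 3 regions, with no call. In IL it was at 0.877, 1.72, 1.55 and 0.781 CPM in naïve rats, at 0.813, 1.54, 0 and 0.235 CPM in withdrawal rats and at 0.464, 0.232, 0.573 and 1.86 CPM in abstinence rats. Withdrawal minus naïve was -1.03 in IL (SE 0.89, adjusted p = 0.627), -0.95 in PL (SE 0.83, adjusted p = 0.699) and -1.33 in NAc (SE 0.93, adjusted p = 0.840). In NAc the naïve values of 0.241 to 1.08 CPM overlapped with withdrawal values of 0 to 0.529 CPM, and M153 and M366 lay inside the naïve range. Without M154 and M172 the changes were -0.03, -0.27 and -0.52. Exact permutation tests gave p = 0.171, 0.229 and 0.171. Abstinence minus naïve lay between -0.70 and -0.07 in the 3 regions and abstinence minus withdrawal between 0.33 and 0.88, all with adjusted p of 0.769 or more.

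rno-miR-292-3p rested on few reads, and it passed the filter through naïve and abstinence libraries. This selection tilts its comparisons with withdrawal towards a lower withdrawal level. In IL its reads were 0, 11, 4 and 3 in naïve rats, 0, 5, 0 and 0 in withdrawal rats and 2, 6, 3 and 15 in abstinence rats. The IL change was -1.99 for withdrawal minus naïve (SE 1.20, adjusted p = 0.508), which passed the unadjusted rule when only the 12 IL libraries were fitted (-2.64, adjusted p = 0.520), and 2.27 for abstinence minus withdrawal (SE 1.13, adjusted p = 0.592). The value for abstinence minus withdrawal was past the unadjusted rule by limma-voom (2.54, adjusted p = 0.800), by DESeq2 (2.53, adjusted p = 0.540) and in that fit of the 12 IL libraries (2.34, adjusted p = 0.552). The shares of all tested miRNAs called for abstinence minus withdrawal were 3.94% by limma-voom, 7.44% by DESeq2 and 7.22% in the 12 libraries, where 7% were called for withdrawal minus naïve. The abstinence minus withdrawal value was also past the rule without abstinence rat M170 (2.51), M363 (2.50) or M472 (2.49). Without withdrawal rat M366 the withdrawal IL libraries were all at 0, and the fitted 5.88 against abstinence and -5.47 against naïve, both past the rule, are set by the model's prior and bound nothing. An exact permutation test of abstinence against withdrawal gave p = 0.0857, where 0.0286 is the smallest possible with 4 against 4. Without M154 and M172 the abstinence minus withdrawal value was 1.37 (adjusted p = 0.647). In PL and NAc the changes of this member lay between -1.16 and 0.44, with adjusted p of 0.686 or more.

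The members also differed between regions. rno-miR-292-5p had a lower mean in NAc than in either cortical region in naïve, withdrawal and abstinence rats (1.78, 1.45 and 2.16 CPM in NAc, against 5.66, 3.48 and 6.16 in IL and 5.44, 2.40 and 6.64 in PL). Over the 12 rats it had a lowest, median and highest level of 0.0985, 5.09 and 10.2 CPM in IL, of 0.255, 4.42 and 13.3 CPM in PL and of 0, 2.05 and 4.10 CPM in NAc. The mean was 5.10 ± 3.19, 4.83 ± 3.61 and 1.80 ± 1.24 CPM (SD, n = 12). NAc was below PL in 12 of 12 rats and below IL in 11 of 12, the exception being M172 with 1 read in IL and 2 in NAc.

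Averaged over the 3 groups, NAc minus IL was -1.44 on the log2 scale for rno-miR-292-5p (SE 0.53, adjusted p = 0.0163, edgeR) and NAc minus PL was -1.36 (SE 0.53, adjusted p = 0.0253). With the rat as a fixed block the values were -1.50 (SE 0.24, adjusted p = 6.4e-06) and -1.40 (SE 0.24, adjusted p = 2.8e-05). Both passed the rule on fold change and unadjusted p under all 20 alternatives, including each rat left out and both low rats left out (-1.47 and -1.31). The adjusted p of NAc minus PL rose to 0.0738 without M456 (-1.14), 0.0647 without M476 and 0.0578 without M378, while that of NAc minus IL was at most 0.0413. Region differences were common among all tested miRNAs, of which 62.4% were called for NAc minus IL and 48.1% for NAc minus PL.

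rno-miR-295-3p had the same direction. Its lowest, median and highest levels were 0, 0.797 and 1.86 CPM in IL, 0, 0.991 and 2.49 CPM in PL and 0, 0.515 and 1.08 CPM in NAc. NAc was below PL in 11 rats with 1 tie at 0, and below IL in 9 rats with 1 tie at 0. NAc minus PL was -1.39 (SE 0.50, adjusted p = 0.0159), called under all 20 alternatives. NAc minus IL was -1.06 (SE 0.51, adjusted p = 0.0628), past the rule by its unadjusted p alone, with -1.10 (adjusted p = 0.00817) under the rat block. It was not called by limma-voom (adjusted p = 0.104), nor without M157, M378, M476, M480, M366, M472 or M456 each in turn (changes of -1.14 to -0.77).

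rno-miR-292-3p was not called for NAc minus IL (-0.62, SE 0.65, adjusted p = 0.405) or NAc minus PL (-1.10, SE 0.58, adjusted p = 0.0974). It was below the PL level in NAc in 7 of 12 rats and tied at 0 in 1. As it passed the filter through cortical libraries, these region values are tilted towards a lower NAc level. Without abstinence rat M363 or without naïve rat M480 the NAc minus PL value was past the rule (-1.31 and -1.36), and without withdrawal rat M366 the NAc minus IL value turned to 0.56 (adjusted p = 0.454). IL and PL did not differ beyond their error in any of the 3 members, with IL minus PL at 0.08 (SE 0.52) for rno-miR-292-5p, -0.33 (SE 0.49) for rno-miR-295-3p and -0.48 (SE 0.59) for rno-miR-292-3p, while 21.0% of all tested miRNAs were called between them.

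**Figure D5:**
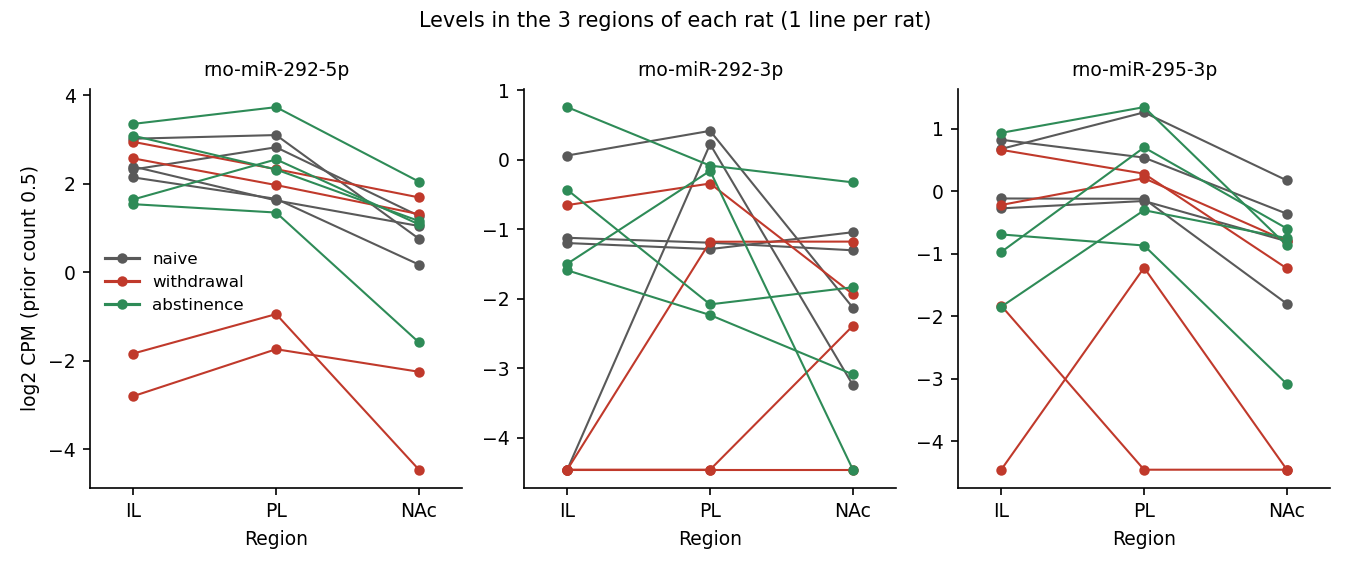
Log2 CPM (prior count 0.5) of the 3 tested members in IL, PL and NAc, with 1 line per rat coloured by group. For rno-miR-292-5p the lines fall from PL to NAc in all 12 rats, and the lowest 2 lines are those of M154 and M172; points at the bottom edge of a panel are libraries with 0 reads.

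The 7 other miRNAs with related seeds that were examined are related to 3p members of the cluster and not to rno-miR-292-5p. Of these 7, 4 had a higher mean CPM than any of the tested members. In the miR-17 family the AAGUGC core lies further from the 5′ end than in the tested 3p members and inside the seed, except in rno-miR-18a-5p, which lacks it. The family is shown here for the 2 most abundant of its rows with the seed in capitals:
rno-miR-93-5p: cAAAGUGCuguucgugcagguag
rno-miR-17-5p: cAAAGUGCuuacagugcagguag
rno-miR-93-5p was at a mean of 115 CPM, rno-miR-17-5p at 21.9, rno-miR-20a-5p at 17.3 and rno-miR-106b-5p at 5.02 CPM, and these 4 passed the filter; rno-miR-20b-5p (0.176 CPM) and rno-miR-18a-5p (0.101 CPM) did not. Of the 4, 0 were called in any of the 9 comparisons of groups by edgeR, and 0 of 36 values had an unadjusted p under 0.05. Between regions, 3 of 4 were higher in NAc than in IL (rno-miR-106b-5p by 1.56, rno-miR-20a-5p by 1.23 and rno-miR-17-5p by 0.67 on the log2 scale) and 1 of 4 was higher in NAc than in PL (rno-miR-106b-5p by 1.16), where rno-miR-292-5p was lower. rno-miR-105, the 1 other row with the seed of rno-miR-291a-3p, had 110 reads in all and did not pass the filter.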

How the data were processed

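Small RNA libraries were made from total RNA with a NEBNext kit, and the authors ran the CAP-miRseq workflow to count the reads of each mature miRNA; the deposited values are raw counts. Library totals ran from 6192155 to 18877136 (median 10739454). Groups, regions and RIN came from the sample labels and rats from the study's list of RNA samples; 1 naïve NAc library not in the text of that list here was given to M480, the only rat of its group left without one. Rats thus pair the libraries across regions (consensus correlation 0.117). Among 54 pairs of replicates 0 were identical. Rows were kept with filterByExpr (minimum count 10, minimum total 15), which left 457 rows with 99.998106% of the counts, and TMM scaling was used.

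edgeR 4.0.16 (R 4.3.3) was fitted with 1 mean per combination of group and region plus RIN; alternatives used limma 3.58.1 (voom), DESeq2 1.42.0, RLE factors, no filter, no RIN, robust dispersion, the 12 libraries of a region, a rat block and each library or rat left out. The fit was tested on simulated libraries drawn independently, without differences between rats, so that test does not bear on members that vary mainly between rats. Exact permutation tests ran over all 70 splits of 4 rats against 4, and permutations of a correlation numbered 100000 (scipy 1.17.1). Log2 CPM used a prior count of 0.5. No length correction was applied between miRNAs, and the mature sequences of the members run from 18 to 23 bases. Whether all miRNAs enter the libraries with equal efficiency was not tested. Shares, ranks and levels compared between miRNAs or arms are therefore those of reads. The members, marker lists and tests were chosen with earlier results of these data known. Named miRNAs were all members, rows with a member's seed, the miR-302, miR-367 and miR-371 rows, the miR-17 family and the 5 tested rows most like each tested member; those with the same low pair of rats were named after their values were seen. All 11 members matched a RefSeq mature sequence, as did 645 of the 723 rows. Replicates are separate rats.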

Additional observations from a re-analysis of the deposited data

Results flagged for a closer look

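Each tested member was examined for a library or rat that lies far from the other 3 of its group (Dixon's test for 4 samples at the 95% level), in 36 groups in all, and chance alone flags about 1 in 20 such groups. A value past the limit was found in 2 groups, both of rno-miR-292-3p. In the IL of withdrawal rats M366 was at 0.591 CPM (5 reads) while the other 3 libraries were at 0. With the 3 regions summed, naïve rat M378 was at 0.845 CPM (plain totals, 24 reads), against 0.347 to 0.382 CPM in the other naïve rats. The pair of low withdrawal rats M154 and M172 was not flagged for any member, because a rule that looks for 1 distant sample does not pick up 2 together.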

How the results depend on the processing

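All values here are log2 changes. Of the 234 values of group comparisons under other settings, 203 kept direction and side of the threshold, as did 71 of 72 for regions. The exceptions follow, and their cause was not tested. By limma-voom, rno-miR-292-5p withdrawal minus naïve in IL was -2.40 and rno-miR-292-3p abstinence minus withdrawal in IL 2.54, both past the rule; rno-miR-292-5p abstinence minus naïve turned to -0.18 in NAc and -0.29 in PL, and rno-miR-295-3p NAc minus IL, -1.05, was lost. With the rat as a replicate block these were -2.36, 2.55, -0.18 and -0.21, and rno-miR-292-5p abstinence minus withdrawal in IL reached 2.02; the fixed rat block changed no call between regions. DESeq2 gave rno-miR-292-3p abstinence minus withdrawal in IL 2.53. rno-miR-295-3p abstinence minus naïve in PL turned to 0.0488 by DESeq2, 0.0409 with RLE factors, 0.0201 without the filter and 0.28 with the 12 libraries of the region. With those 12 libraries rno-miR-292-3p was also -0.29 (abstinence minus naïve, IL), 2.34 (abstinence minus withdrawal, IL), -2.64 (withdrawal minus naïve, IL) and 0.12 (withdrawal minus naïve, NAc), and rno-miR-292-5p -0.18 (abstinence minus naïve, NAc) and -0.11 (abstinence minus withdrawal, NAc). Without RIN, rno-miR-292-3p was 0.0224 (abstinence minus naïve, NAc) and 0.37 (abstinence minus withdrawal, NAc), and rno-miR-292-5p 0.12 (abstinence minus naïve, IL). Without M154 and M172, a setting chosen after seeing the data, rno-miR-292-5p was 0.0823 in IL and 0.71 in NAc for withdrawal minus naïve, and -0.16 and -0.56 for abstinence minus withdrawal. rno-miR-292-3p was 0.33 (withdrawal minus naïve, NAc) and -0.32 (abstinence minus withdrawal, PL), and rno-miR-295-3p -0.57 in IL and -0.0220 in NAc for abstinence minus withdrawal. On plain library totals 2 of 54 permutation values turned, rno-miR-292-3p abstinence minus withdrawal in NAc to -0.0043 and rno-miR-292-5p abstinence minus naïve in IL to 0.0258.

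Leaving out 1 library or rat in turn moved 21 of 27 values of group comparisons and 2 of 9 of regions by over 1.5 times. rno-miR-292-5p ran from -1.81 to -0.59 (IL) and -1.63 to -0.70 (PL) for withdrawal minus naïve and from 0.30 to 1.42 (IL) and 0.27 to 1.87 (PL) for abstinence minus withdrawal, and rno-miR-295-3p withdrawal minus naïve from -1.84 to -0.56 (IL), -1.40 to -0.52 (PL) and -2.01 to -0.97 (NAc), with no call. Direction or side of the threshold changed in the following. For rno-miR-292-3p the ranges were -0.91 to 0.56 (NAc minus IL), -1.36 to -0.75 (NAc minus PL), -0.63 to 1.01 and -1.30 to 0.20 (abstinence minus naïve, IL and NAc), 1.41 to 5.88, -0.35 to 1.49 and -1.09 to 0.48 (abstinence minus withdrawal, IL, PL and NAc), and -5.47 to -1.26 and -0.72 to 0.33 (withdrawal minus naïve, IL and NAc). For rno-miR-292-5p they were -0.0627 to 0.22 (IL minus PL), -0.31 to 0.43 and -0.75 to 0.61 (abstinence minus naïve, NAc and PL), -0.18 to 0.88 (abstinence minus withdrawal, NAc) and -0.84 to 0.23 (withdrawal minus naïve, NAc). For rno-miR-295-3p they were -1.23 to -0.77 (NAc minus IL), -0.74 to 0.34 (abstinence minus naïve, PL) and -0.55 to 1.24 (abstinence minus withdrawal, IL). Tests of differences between regions of a change were run with limma-voom alone, since edgeR called no change.

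With a standard error near 1 on the log2 scale in most comparisons of 4 rats with 4, changes of the size measured could not be told from 0. rno-miR-292-3p and rno-miR-295-3p had 25 reads or fewer in each library, so their levels carry wide counting intervals.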
